A study of Mus musculus with 24 samples.

Results

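Adipose progenitors of the gonadal fat labelled APC were compared between M and F mice, over every autosomal gene with a normalised value of at least 10 in at least 3 of the 6 libraries. The rule kept 12511 of the 27179 genes in the table. The table holds 23971 genes placed on an autosome; the other 11460 of these were below that minimum, and 5703 of them were at 0 in all 6 libraries. The compared groups were M_APC (3 libraries, male) and F_APC (3 libraries, female), all made from flow-sorted cells of the gonadal white fat of C57BL/6 mice that carried PDGFRb. The whole series holds 24 libraries in 8 groups of 3, with a second gonadal subpopulation (FIP) and the inguinal subpopulations DPP4_neg and DPP4_pos in each sex. The sources used here do not give ages, treatments, the gates that define APC, or whether animals were pooled. Nor do the labels tie each replicate to an animal of its own, and each p-value is set against the spread of 3 libraries a group, part or all of which may be technical.

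Adipose progenitors are stromal cells around the vessels and in the septa of fat that can divide and turn into fat-storing adipocytes. PDGFRb, a receptor for platelet-derived growth factor, marks many of them, and they also lay down matrix, secrete chemokines and growth factors, and take up or modify steroid hormones. Gonadal fat is the depot around the epididymis or the ovary and uterus, so it sits beside a different organ in each sex, and sex hormones are known to alter the growth of this depot.

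Recovered reads per library were 10324560 to 11300524 in M_APC and 9152470 to 13394027 in F_APC. The log2 values correlated across genes with r of 0.989 to 0.992 within a group and 0.934 to 0.939 between the groups. The sex labels were checked on Xist, the RNA of the inactive X chromosome, which had 3.22, 5.80 and 1.13 in M_APC, against 17071, 14230.5 and 19203 in F_APC. Ddx3y, a Y-linked helicase gene, had 2260.1, 2077 and 2142 in M_APC, against 83.2, 70.2 and 124 in F_APC; summed over 4 Y-linked genes, the F_APC libraries held 3.19% to 5.41% of the M_APC mean. These 4 genes have close X-linked relatives, but where the F_APC reads of these genes came from was not tested. Nor was their part in any result tested, including the ratios of genes that were low in F_APC. The progenitor markers Pdgfra, Pdgfrb, Ly6a, Cd34, Dcn, Col1a1 and Lum were all present in every library, Dcn at 156745 to 180265 in M_APC and at 124212 to 132735 in F_APC.

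Values are the authors' normalised reads per gene, comparable between libraries but, without gene length, not between genes, and fold changes are log2(value + 1) of M_APC minus F_APC with the standard error. In sorted bulk samples, fewer cells of a type and less RNA per cell cannot be told apart.

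A large share of the measured autosomal genes differed between the sexes in these cells, mostly by small steps. The test called 3093 genes higher in M_APC (24.7% of 12511) and 3023 lower (24.2%), 48.9% in all, at a Benjamini-Hochberg adjusted p under 0.05 in limma. Past 2-fold, 755 genes (6.03%) were higher and 680 (5.44%) lower in M_APC. Of the called genes 51.8% differed by less than 1.5-fold, while 75 were higher and 84 lower in M_APC by more than 8-fold. The median log2 fold change over all 12511 genes was 0.0033, with quartiles of -0.29 and 0.33. All 3 M_APC libraries lay above all 3 F_APC libraries for 28.6% of genes, and below them for 28.3%. Separated groups were therefore common, and some named genes were chosen by them, so the separations given below describe single genes only. List counts below are to be read beside the 24.7% higher and 24.2% lower of all genes.

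**Figure D1:**
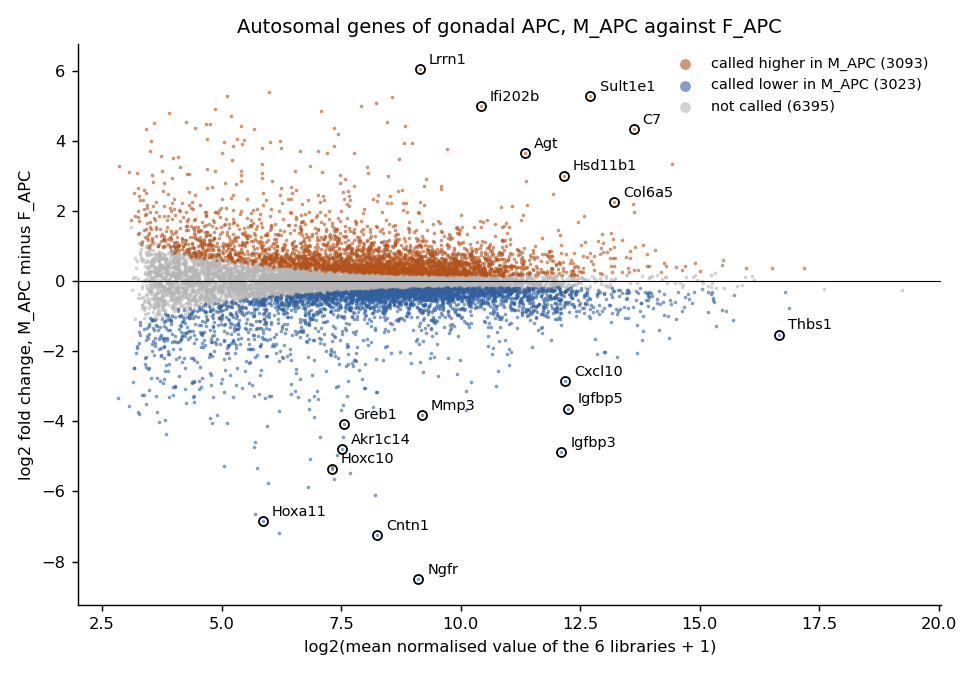
Each point is 1 of the 12511 autosomal genes, with the log2 mean normalised value of the 6 libraries on the x axis and the log2 fold change of M_APC minus F_APC on the y axis; orange genes were called higher in M_APC (3093), blue genes lower (3023), and grey genes were not called. The widest differences, such as Lrrn1 at 6.05 and Ngfr at -8.51, stand far outside the band of most genes, and Sult1e1, C7 and Igfbp3 combine a large difference with a high level.

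Genes that make, inactivate or read steroid hormones, in lists written with earlier results of these data known, held some of the widest differences. Sult1e1, the estrogen sulfotransferase that inactivates estrogens (chromosome 5, 87575968 to 87591611, GRCm38), had 13056, 14144 and 12059 in M_APC, against 317, 272 and 427 in F_APC. It averaged 13086 ± 1043 in M_APC and 339 ± 79.8 in F_APC (SD, n = 3 each) and was 38.6-fold higher in M_APC (log2 fold change 5.29 ± 0.11, SE, limma, adjusted p = 9.27e-17). Every M_APC library was far above every F_APC library. Hsd11b1, which regenerates active glucocorticoid from its inert form (chromosome 1, 193221640 to 193264045), had 8019.9, 8767 and 7489 in M_APC, against 975, 951 and 1087 in F_APC, a log2 fold change of 3.01 ± 0.08, adjusted p = 7.68e-16. Hsd11b2, which catalyses the opposite reaction, had 33.3, 53.3 and 38.5 in M_APC, against 234, 222 and 145 in F_APC. That was a fall of the second enzyme in M_APC (-2.23 ± 0.20, adjusted p = 2.49e-08), while the first rose, and neither pair of groups overlapped.

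Akr1c14, a hydroxysteroid dehydrogenase of the aldo-keto reductase family, had 12.9, 11.6 and 10.2 in M_APC, against 284, 398 and 369 in F_APC (-4.80 ± 0.18, adjusted p = 2.07e-13). Cyp7b1, a hydroxylase of oxysterols and of some steroids, had 55.8, 54.5 and 72.4 in M_APC, against 323, 218 and 207 in F_APC (-1.998 ± 0.17, adjusted p = 1.33e-08). Both were lower in every M_APC library. Srd5a1, a steroid 5-alpha reductase, went the other way with 73.0, 55.6 and 73.5 in M_APC, against 21.8, 26.2 and 44.2 in F_APC (1.16 ± 0.24, adjusted p = 0.000641). Smaller rises in M_APC were found for Hsd17b7 (0.55), Hsd3b7 (0.38) and Srd5a3 (0.37), and smaller falls for Star, which carries cholesterol into mitochondria (-0.84), Ugt1a6a (-0.51), Hsd17b4 (-0.29) and Hsd17b11 (-0.20). The call of Hsd17b11 was lost without M_APC replicate 1 (adjusted p = 0.0624), M_APC replicate 3 (adjusted p = 0.103) or F_APC replicate 3 (adjusted p = 0.0754). Of the 17 tested genes of the list, 6 rose and 7 fell, and its median of 0.08 hides opposite movements of its members. Akr1c13, Hsd17b1 and Hsd17b12 were not called, Hsd17b10 is X-linked, and Cyp19a1, the aromatase gene, was below the minimum with 1.07, 1.16 and 1.13 in M_APC, against 0, 0 and 0 in F_APC. Also below it were Akr1c18 (0, 1.16 and 2.26 in M_APC, against 9.90, 13.1 and 24.9 in F_APC), Akr1c12, Hsd17b2, Srd5a2 and Cyp11a1; Srd5a2 was at 0 in all 6 libraries.

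Among steroid receptors, Esr1, which encodes estrogen receptor alpha (chromosome 10, 4611989 to 5005633), had 382, 294 and 361 in M_APC, against 989, 738 and 886 in F_APC (-1.33 ± 0.11, adjusted p = 1.07e-08). Greb1, a co-regulator of that receptor and a known estrogen-induced gene (chromosome 12, 16670615 to 16801394), had 20.4, 20.9 and 18.1 in M_APC, against 257, 419 and 395 in F_APC. It was 18.1-fold lower in M_APC on the mean values (-4.08 ± 0.18, adjusted p = 1.55e-12). The progesterone receptor gene Pgr was below the minimum, with 1.07, 1.16 and 2.26 in M_APC, against 19.8, 9.51 and 24.9 in F_APC, so its values are given without a test. The glucocorticoid receptor gene Nr3c1 was not called (1645, 1624 and 1718 in M_APC, against 1772, 1887 and 1861 in F_APC, -0.15 ± 0.07, adjusted p = 0.0795), nor was the mineralocorticoid receptor gene Nr3c2 (0.39). Of the co-regulators and responders, Ncoa1 rose (0.60), whereas Zbtb16 (-0.77) and Fkbp4 (-0.75), a chaperone partner of steroid receptors, fell. Fkbp5 (-0.17), Per1 (-0.09), Ncoa2 (-0.11), Ncoa3 (0.18) and Ncor1 (-0.01) were not called. Esr2 and Gper1 were below the minimum, and Tsc22d3 is X-linked. Of the 12 tested genes of the receptor and co-regulator list 1 rose and 4 fell. That was 41.7% called in all, below the 48.9% of all genes.

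**Figure D2:**
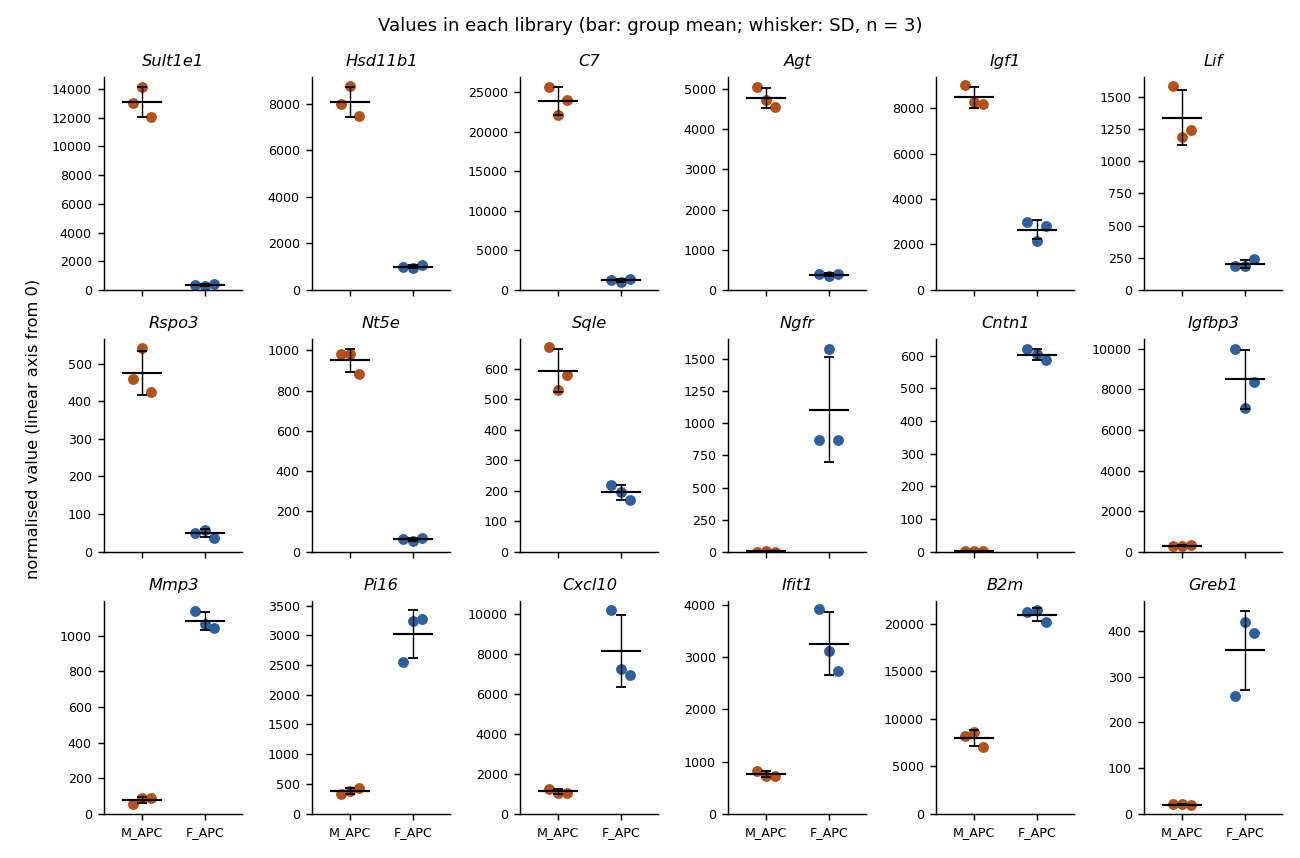
Normalised values of 18 autosomal genes in each library, with the 3 M_APC libraries in orange on the left of each panel and the 3 F_APC libraries in blue on the right; bars are group means and whiskers SD, and every linear axis starts at 0. No panel shows an overlap between the groups, but the genes were chosen among called genes, so this adds no support. Of all 12511 genes, 28.6% had M_APC wholly above F_APC and 28.3% wholly below. The first 9 genes are higher in M_APC while the other 9 are lower.

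The widest rise in M_APC was that of Lrrn1. This gene, which encodes a neuronal leucine-rich repeat membrane protein (chromosome 6, 107529726 to 107570228), had 1102, 1157 and 1086 in M_APC, against 11.9, 14.3 and 23.5 in F_APC (6.05 ± 0.18, adjusted p = 5.74e-15). Lrrtm3, a related synaptic adhesion gene, had 114, 131 and 127 in M_APC, against 0.990, 2.38 and 2.77 in F_APC (5.41 ± 0.31, adjusted p = 7.27e-11). Cadps, a priming factor for vesicle release, had 482, 439 and 477 in M_APC, against 12.9, 5.95 and 30.4 in F_APC (5.01 ± 0.33, adjusted p = 4.76e-10). All 3 genes were low in every F_APC library and far above that in every M_APC library. Pde11a, a phosphodiesterase of cyclic nucleotides, had 863, 562 and 789.6 in M_APC, against 17.8, 17.8 and 18.0 in F_APC (5.27 ± 0.15, adjusted p = 5.74e-15). Dok7, an adaptor of receptor tyrosine kinase signalling at the neuromuscular junction, had 585, 539 and 609.8 in M_APC, against 15.8, 10.7 and 23.5 in F_APC (5.10 ± 0.20, adjusted p = 3.18e-13). The sialyltransferase gene St8sia6 (4.87), the engulfment receptor gene Megf10 (4.54), the carboxypeptidase-like gene Cpxm2 (4.42), the choline phosphodiesterase gene Enpp6 (4.19), Ttyh1 (4.01) and the tolloid-like protease gene Tll2 (3.97) completed the 15 largest rises with Sult1e1, Ifi202b, Lmod1 and C7.

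The widest falls in M_APC were led by Ngfr, the low-affinity neurotrophin receptor (chromosome 11, 95568818 to 95587698), with 1.07, 4.64 and 1.13 in M_APC, against 871, 1578 and 868 in F_APC (-8.51 ± 0.31, adjusted p = 1.56e-13). Replicate 2 of F_APC was the highest, and every F_APC library was far above the nearly empty M_APC libraries. Cntn1, the neural adhesion molecule contactin 1, had 3.22, 2.32 and 3.39 in M_APC, against 619, 604 and 585 in F_APC (-7.26 ± 0.19, adjusted p = 1.69e-15). Ptpn5, a tyrosine phosphatase known from neurons, had 0 reads in M_APC, against 90.1, 128 and 85.7 in F_APC, and was at least 90.5-fold lower in M_APC against a floor of 3 reads over the group. Emb, an immunoglobulin-family transporter partner, had 5.37, 11.6 and 6.79 in M_APC, against 595, 647 and 510.2 in F_APC (-6.09 ± 0.21, adjusted p = 7.52e-14). Frzb, a secreted Wnt antagonist, had 7.51, 2.32 and 9.05 in M_APC, against 234, 249 and 184 in F_APC (-5.07 ± 0.32, adjusted p = 2.18e-10). Emb and Frzb were low in each M_APC library and far higher in each F_APC library. Brinp3 (-5.88), Nrn1 (-5.33), Myoc, the myocilin gene (-5.29), and Fam110c (-4.96) fell likewise. Igha, the constant region of immunoglobulin A heavy chain made by plasma cells, had 0, 9.27 and 43.0 in M_APC, against 618, 413 and 152 in F_APC; its values scattered within each group, and the fold change of -5.47 ± 0.82 carried the widest error of the 15 largest falls.

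The list of axon guidance, neurotrophin and neuronal adhesion genes was written with earlier results of these data known. That it holds Lrrn1 and Ngfr, the widest rise and fall, is therefore no result. Of its 33 tested members 9 rose and 17 fell in M_APC, with a median of -0.43. This median was -0.1162 at a minimum of 50 and -0.2710 under quantile normalization. Besides Ngfr and Cntn1, the neural cell adhesion gene Ncam1 had 3.22, 4.64 and 11.3 in M_APC, against 109, 117 and 120.3 in F_APC (-4.13 ± 0.32, adjusted p = 4.76e-09). Members that fell, read after their values were seen, included the guidance receptor genes Robo1 (-1.49), Robo2 (-3.34) and Unc5c (-2.46), and the semaphorin genes Sema3a (-0.92), Sema3c (-1.21), Sema3d (-2.07) and Sema3e (-1.19). Those that rose with Lrrn1 included Ntrk3, the receptor of neurotrophin 3, at 251, 216 and 257 in M_APC, against 47.5, 54.7 and 80.2 in F_APC (2.001), the netrin gene Ntn1 (1.72) and its receptor gene Unc5b (1.52). Ntf3, the neurotrophin 3 gene itself, was not called (-0.17). Schwann cell and nerve markers summed to 152 to 210.4 in M_APC and 171 to 252 in F_APC over the whole marker list; of its 3 tested genes only S100b was called, with 34.3, 32.5 and 35.1 in M_APC, against 87.1, 93.9 and 78.8 in F_APC (-1.32). Their part in these differences was not tested.

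HOX genes, which record position along the body axis in mesenchymal cells, split by their place in the clusters. Hoxa11 (chromosome 6, 52242105 to 52245810) had 0 reads in all 3 M_APC libraries, against 109.9, 113 and 120.3 in F_APC, and was at least 102-fold lower in M_APC against a floor of 3 reads over the group. The overlapping antisense transcript Hoxa11os also had 0 reads in M_APC, against 122, 155 and 158 in F_APC, at least 129-fold lower; without a stated strand setting the 2 cannot be told apart. Hoxa10 had 0, 1.16 and 4.53 in M_APC, against 104, 136 and 127 in F_APC (-5.74 ± 0.45, adjusted p = 5.67e-09). Hoxc10 had 7.51, 10.4 and 3.39 in M_APC, against 318, 290.2 and 315 in F_APC (-5.36 ± 0.27, adjusted p = 8.08e-12). Hoxc11 had 2 reads in M_APC and 59 in F_APC, a mean-value ratio of 29.8-fold lower in M_APC (exact binomial 95% interval 8.27 to 264, counting error only). These posterior genes were nearly silent in M_APC.

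The more anterior HOX genes, named here after their values were seen, ran the other way. Hoxb2 had 126, 133 and 129 in M_APC, against 12.9, 21.4 and 26.3 in F_APC (2.68 ± 0.23, adjusted p = 1.38e-08). Hoxc8 had 712, 784 and 643 in M_APC, against 186, 171 and 162 in F_APC (2.03 ± 0.10, adjusted p = 5.52e-12). Hoxa5, known from earlier work on adipose depots, had 341, 449 and 367 in M_APC, against 160.4, 178 and 202 in F_APC (1.09 ± 0.12, adjusted p = 3.87e-07). Of 33 HOX genes in the list 26 were tested, 13 rose and 7 fell. The 13 that rose were Hoxa2, Hoxa3, Hoxa4, Hoxa5, Hoxa7, Hoxb2, Hoxb3, Hoxb4, Hoxb5, Hoxc4, Hoxc5, Hoxc6 and Hoxc8, and the 7 that fell were Hoxa9, Hoxa10, Hoxa11, Hoxb6, Hoxc10, Hoxc11 and Hoxd9. Hoxb6 was the exception among the lower numbers, with a log2 fold change of -0.55 ± 0.21. The list median was 0.64, also with Hoxa11 set at its bound, and 1.1052 at a minimum of 50.

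**Figure D3:**
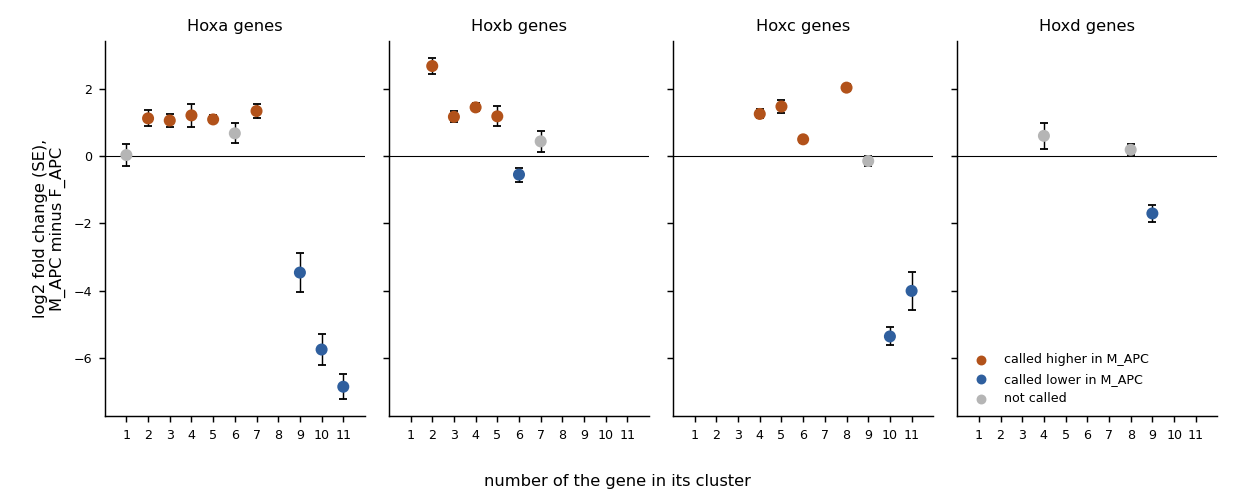
Log2 fold change of M_APC minus F_APC for the 26 tested HOX genes, by cluster (panels) and by the number of the gene in its cluster (x axis); whiskers are SE, orange genes were called higher in M_APC, blue lower, and grey not called. Genes numbered 2 to 8 lie mostly above 0, and Hoxa9, Hoxa10, Hoxa11, Hoxc10, Hoxc11 and Hoxd9 lie below it; the Hoxa11 point depends on the pseudocount, since M_APC had 0 reads.

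Other patterning factors were mixed, 7 higher and 13 lower of 26 tested. Meox1, a homeobox gene of paraxial mesoderm, had 223, 271 and 241 in M_APC, against 35.6, 21.4 and 26.3 in F_APC (3.12 ± 0.18, adjusted p = 6.26e-11). Osr2, a zinc finger gene of mesenchymal patterning, had 283, 269 and 248 in M_APC, against 2004, 1564 and 1481 in F_APC (-2.64 ± 0.10, adjusted p = 2.29e-13). Emx2, a homeobox gene of urogenital development, had 75.1, 47.5 and 65.6 in M_APC, against 219, 193 and 243 in F_APC (-1.80 ± 0.16, adjusted p = 3.55e-08), and En1 was low throughout, with 10.7, 5.80 and 1.13 in M_APC, against 34.7, 26.2 and 29.0 in F_APC (-2.47). Wt1, a mesothelial and visceral fat factor, and Tcf21, a visceral mesenchymal factor, differed less, at -0.40 ± 0.07 and -0.52 ± 0.07; these 2 were chosen after their values were seen.

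Genes that mark the interstitial, multipotent progenitors of fat were lower in M_APC: 13 of 17 tested fell and none rose, with a median of -1.67. This median was -1.8278 without F_APC replicate 1 and -1.5066 without F_APC replicate 3. Pi16, a secreted peptidase inhibitor that marks this state (chromosome 17, 29318796 to 29328903), had 326, 386 and 423 in M_APC, against 2551, 3239 and 3267 in F_APC (-2.99 ± 0.10, adjusted p = 5.09e-14). Dpp4, the gene of a surface peptidase used to sort such cells (chromosome 2, 62330073 to 62412315), had 159.9, 204 and 218 in M_APC, against 1060.3, 1295 and 1461 in F_APC (-2.71 ± 0.12, adjusted p = 1.53e-12). Efhd1, a mitochondrial calcium-binding protein gene, had 42.9, 74.2 and 66.7 in M_APC, against 468, 662 and 499 in F_APC (-3.15 ± 0.17, adjusted p = 2.76e-11). All 3 were several-fold lower in each M_APC library. Sfrp4, a secreted Wnt antagonist, had 52.6, 52.2 and 50.9 in M_APC, against 598, 396 and 351 in F_APC (-3.05 ± 0.16, adjusted p = 1.48e-11), and Cd55, a complement regulator on the same cells, had 650.4, 738 and 677 in M_APC, against 2309, 2737 and 2738 in F_APC (-1.91 ± 0.08, adjusted p = 8.88e-13). Bmp7 (-0.65), Anxa3 (-0.16), Creb5 (0.00) and Smpd3 (0.16) were not called.

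Committed preadipocyte genes did not show a matching rise: of 20 tested, 3 rose and 11 fell, with a median of -0.29 (-0.1786 under quantile normalization). Lpl, the lipoprotein lipase gene, had 23026, 26060.5 and 23295 in M_APC, against 56956, 57966 and 61109 in F_APC (-1.28 ± 0.09, adjusted p = 9.05e-10). Apoe, the apolipoprotein E gene, had 10229.6, 10361 and 10210.0 in M_APC, against 33157, 31308 and 30443 in F_APC (-1.62 ± 0.07, adjusted p = 2.91e-12). Car3, a carbonic anhydrase of fat and muscle, had 608, 721 and 646 in M_APC, against 2169, 2321 and 2644 in F_APC (-1.85 ± 0.08, adjusted p = 2.59e-12), and Mme, the gene of the surface peptidase neprilysin, had 182, 145 and 171 in M_APC, against 729, 729 and 590.4 in F_APC (-2.03 ± 0.11, adjusted p = 2.53e-11). Each was lower in every M_APC library. The adipogenic regulator genes Pparg (0.13 ± 0.08) and Cebpa (-0.15 ± 0.07) and the lipid chaperone gene Fabp4 (-0.08 ± 0.11) were not called, and Cebpb rose (0.81 ± 0.07). In the F3 stromal list 4 of 11 rose and 4 fell: F3 itself, the tissue factor gene, rose (0.87), while Mgp, an inhibitor of calcification, had 720.1, 1075 and 785 in M_APC, against 3725, 3173 and 3338 in F_APC (-2.01 ± 0.11, adjusted p = 3.02e-11) and Clec11a, a secreted bone growth factor, had 128, 111 and 107 in M_APC, against 546, 574 and 529.5 in F_APC (-2.24 ± 0.10, adjusted p = 2.81e-12).

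Surface genes used to sort mesenchymal cells differed as well, 3 higher and 8 lower of 15. Pdgfrb, the gene of the sorted protein (chromosome 18, 61045127 to 61085067), had 6277, 6045 and 6134 in M_APC, against 2761, 2299.8 and 2382 in F_APC (1.31 ± 0.07, adjusted p = 4.84e-11), so its transcript was higher in M_APC although all cells were sorted as positive. Pdgfra fell in M_APC (-0.53), with 13023, 12149 and 12829 in M_APC, against 17921, 18727 and 18154 in F_APC. Nt5e, the surface nucleotidase CD73, had 984, 984 and 885 in M_APC, against 63.4, 53.5 and 67.7 in F_APC (3.93 ± 0.11, adjusted p = 2.86e-15). Ly6c1 had 338, 309 and 365 in M_APC, against 704, 1088 and 1257 in F_APC (-1.55 ± 0.14, adjusted p = 5.19e-08), but it has near-identical neighbours and is uncertain as a single gene. Cd9, a tetraspanin gene, had 96.6, 123 and 129 in M_APC, against 226, 240.2 and 336 in F_APC (-1.18 ± 0.15, adjusted p = 2.69e-06). Ly6c1 and Cd9 were both higher in each F_APC library.

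**Figure D4:**
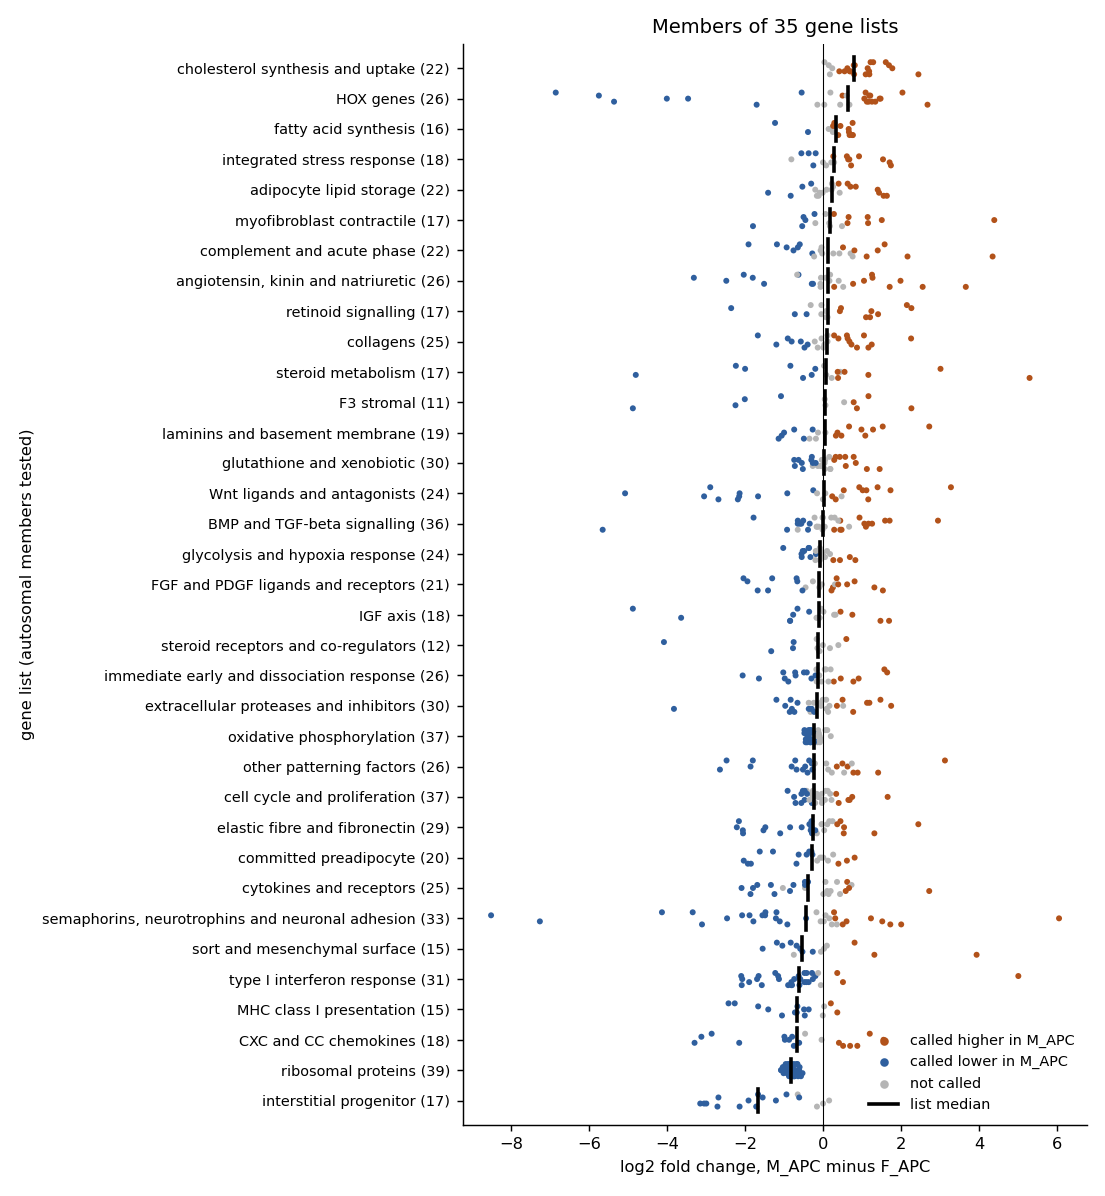
Log2 fold changes of M_APC minus F_APC for the tested autosomal members of 35 gene lists (number tested in brackets), ordered by the list median (black bar); orange members were called higher in M_APC, blue lower, and grey not called. The interstitial progenitor list has the lowest median, -1.67, and the cholesterol list the highest, 0.80; in the ribosomal protein list all 39 members lie between -1.08 and -0.53.

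Of 18 tested genes of the insulin-like growth factor axis 4 rose and 7 fell, and its binding protein genes moved in both directions. Igf1, the growth factor itself (chromosome 10, 87858265 to 87937047), had 9026, 8258 and 8178 in M_APC, against 2977, 2168 and 2808 in F_APC (1.69 ± 0.09, adjusted p = 3.94e-11). Igfbp3, a binding protein that carries it (chromosome 11, 7206086 to 7215498), had 289, 263 and 308 in M_APC, against 9994, 7097 and 8387 in F_APC, 29.6-fold lower in M_APC (-4.87 ± 0.10, adjusted p = 9.27e-17). Igfbp5, another of these binding proteins, had 808, 596 and 783 in M_APC, against 9736, 9078 and 8245 in F_APC (-3.64 ± 0.10, adjusted p = 1.69e-15). Igfbp3 and Igfbp5 were far lower in each M_APC library than in any F_APC library. Igfbp7, a further binding protein gene, rose, with 16693, 19332 and 17071 in M_APC, against 13396, 12568 and 12912 in F_APC (0.45 ± 0.08, adjusted p = 0.000112). Igf1r, the receptor gene, rose (0.75), and Igfbp4 (-0.85), Igfbp6 (-0.77) and the binding protein protease gene Pappa (-0.66) fell; Igf2 (-0.17) was not called.

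Wnt genes moved in both directions, 10 higher and 10 lower of 24. Rspo3, an R-spondin that amplifies Wnt signals, had 459, 540.2 and 425 in M_APC, against 50.5, 58.3 and 37.3 in F_APC (3.28 ± 0.15, adjusted p = 2.98e-12). The Wnt ligand genes Wnt5a (1.015), Wnt5b (1.396) and Wnt6 (1.16) rose, and Wnt2 (-2.68), Wnt2b (-2.15) and Wnt10b (-2.14) fell. Among the antagonists, Frzb, Sfrp4, Sfrp2 (-2.18) and Dkk3 (9.66, 13.9 and 7.92 in M_APC, against 70.3, 79.7 and 99.5 in F_APC, -2.89 ± 0.26, adjusted p = 3.04e-08) fell, whereas Sfrp1 (0.93) and Dkk2 (1.11) rose. Axin2, a common target of the pathway, was not called (-0.00).

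In the BMP and TGF-beta list 12 of 36 rose and 10 fell. Nog, the BMP antagonist noggin, had 113, 95.1 and 91.6 in M_APC, against 18.8, 9.51 and 9.68 in F_APC (2.94 ± 0.26, adjusted p = 2.21e-08). The ligand genes Bmp4 (1.26) and Bmp5 (1.59) rose with it, and so did Tgfb1 (1.10). Tgfbi, a matrix protein induced by TGF-beta, had 217, 263 and 273 in M_APC, against 1033, 750.4 and 823 in F_APC (-1.78 ± 0.11, adjusted p = 2.80e-10). Fst, the activin antagonist follistatin, fell (-0.92), and the target gene Id3 fell (-0.65), while Id1 was not called (0.04). Of 21 FGF and PDGF genes 8 rose and 8 fell. The ligand genes Fgf1, Fgf9, Fgf10 and Fgf18 were lower in M_APC (-1.68, -1.94, -1.30 and -1.41), while Fgf2 (-0.45) and Fgf7 (-0.03) were not called. Fgf9 was near the minimum, with a mean of 6.36 in M_APC and 26.8 in F_APC. The feedback inhibitor Spry4 was higher, with 1389.8, 1404 and 1455 in M_APC, against 524, 428 and 521 in F_APC (1.53 ± 0.08, adjusted p = 3.30e-11). Retinoid genes rose more often than they fell, 8 against 3 of 17: the retinoic acid synthesis gene Aldh1a3 had 3654, 3429 and 3423 in M_APC, against 799, 713 and 864 in F_APC (2.15 ± 0.08, adjusted p = 9.53e-14). Aldh1a2, of the same family, had 189, 228 and 239 in M_APC, against 51.5, 42.8 and 40.1 in F_APC (2.26 ± 0.15, adjusted p = 6.32e-10), and the receptor gene Rara rose by 1.41.

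Collagen and basement membrane genes moved in both directions. Of 25 collagen genes 11 rose and 7 fell. The fibril-forming Col1a1 (-0.14), Col1a2 (0.03) and Col3a1 (-0.21) were not called. Col6a5, a chain of microfibrillar collagen, had 15562, 14798 and 16561 in M_APC, against 3511, 2888 and 3458 in F_APC (2.25 ± 0.08, adjusted p = 1.07e-13), whereas Col6a1 (-0.48), Col6a2 (-0.40) and Col6a3 (-0.81) of the same collagen fell. Col6a2 lost its call under quantile normalization (adjusted p = 0.0814). Col14a1, a fibril-associated collagen, had 1584, 1852 and 1965 in M_APC, against 5343, 5729 and 6102 in F_APC (-1.67 ± 0.08, adjusted p = 5.60e-12). Col4a4, among the collagens that rose, had 1301, 1065 and 1450.3 in M_APC, against 550.5, 501 and 545 in F_APC (1.25). In the separate list of laminins and basement membrane genes 9 of 19 rose and 6 fell. Lamc3, a laminin chain, had 1128, 938 and 1066 in M_APC, against 146, 199 and 134 in F_APC (2.72 ± 0.12, adjusted p = 1.77e-12). Egflam, an extracellular linker of dystroglycan, rose by 1.53.

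Elastic fibre and fibronectin genes fell for 16 of 29, with 6 higher. Fbln1, the fibulin 1 gene, had 3551, 3724 and 3565 in M_APC, against 18037, 16944 and 13687 in F_APC (-2.16 ± 0.09, adjusted p = 4.62e-13). Fn1, the fibronectin gene, had 32122, 32581 and 36296 in M_APC, against 71052, 73552 and 71353 in F_APC (-1.10 ± 0.09, adjusted p = 1.33e-08), and Thbs1, the matricellular thrombospondin 1, had 55759.6, 48499.7 and 54629.5 in M_APC, against 157303, 149627 and 150385 in F_APC (-1.53 ± 0.11, adjusted p = 9.97e-10). In all 3 genes every M_APC library was below every F_APC library. Mfap4 (-2.21), Mfap2 (-2.06) and Postn, the periostin gene (-2.05), fell as well, while Tnc, the tenascin C gene, had 265, 354 and 405 in M_APC, against 66.3, 48.8 and 70.5 in F_APC (2.44 ± 0.16, adjusted p = 5.67e-10). Among proteases and their inhibitors, 7 of 30 rose and 12 fell. Mmp3, the stromelysin gene, had 56.9, 88.1 and 87.1 in M_APC, against 1142, 1069 and 1047 in F_APC (-3.82 ± 0.13, adjusted p = 7.52e-14), and Serpine2, an inhibitor of serine proteases, had 2335, 2453 and 2169.8 in M_APC, against 684, 681 and 708 in F_APC (1.74 ± 0.07, adjusted p = 5.41e-13).

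Interferon-induced and antigen presentation genes were lower in M_APC. Of 31 tested interferon response genes 26 fell and 3 rose, with a median of -0.63. Ifit1, an interferon-induced RNA-binding protein (chromosome 19, 34640889 to 34650009), had 823, 729 and 727 in M_APC, against 3921, 3120.3 and 2731 in F_APC (-2.08 ± 0.10, adjusted p = 5.36e-12). Oas1a, an oligoadenylate synthetase of antiviral defence (chromosome 5, 120896256 to 120907544), had 70.8, 47.5 and 56.6 in M_APC, against 279, 235 and 224 in F_APC (-2.07 ± 0.15, adjusted p = 2.49e-09). Ifit3b, a close copy of Ifit3 and so uncertain as a single gene, had 66.5, 62.6 and 46.4 in M_APC, against 298, 239 and 221 in F_APC (-2.10). The exceptions were Ifit2 (0.51), Dhx58 (0.36) and Ifi202b; Ifi202b, of the multigene Ifi200 family and uncertain for the same reason, had 1863, 3497 and 2626 in M_APC, against 73.3, 77.3 and 88.5 in F_APC (5.002 ± 0.15, adjusted p = 9.10e-15). The transcription factor genes Irf7 (-0.80) and Irf9 (-0.48) fell by less.

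Promoter sequences were read for these genes because many interferon-induced promoters hold the interferon-stimulated response element. The 250 bases before the annotated start are given for 1 strongly lowered gene of each family (RefSeq annotation of GRCm38.p6, Ifit1 at chr19:34640639-34640888 on the plus strand and Oas1a at chr5:120907526-120907775 on the minus strand), 5′ to 3′ along the gene. For Oas1a the start is that of the transcript in the promoter table, just inside the span given for the gene. Capitals mark matches, on either strand, to the letters GAAA, any 2 bases and GAAA again.
Ifit1: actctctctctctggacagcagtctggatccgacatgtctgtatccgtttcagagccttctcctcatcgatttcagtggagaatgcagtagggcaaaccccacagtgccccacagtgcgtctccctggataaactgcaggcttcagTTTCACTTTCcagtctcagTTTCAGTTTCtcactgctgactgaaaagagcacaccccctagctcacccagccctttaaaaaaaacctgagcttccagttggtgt
Oas1a: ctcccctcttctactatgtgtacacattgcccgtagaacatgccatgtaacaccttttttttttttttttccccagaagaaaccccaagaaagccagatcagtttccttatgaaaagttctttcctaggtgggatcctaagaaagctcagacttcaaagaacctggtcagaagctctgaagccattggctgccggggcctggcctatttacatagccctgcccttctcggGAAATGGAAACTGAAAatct
The Ifit1 stretch holds 2 matches, starting 104 and 85 bases before the start, both on the opposite strand, and the Oas1a stretch holds 2 overlapping matches, starting 20 and 14 bases before it. Of the 9836 tested autosomal genes with a promoter sequence, 2.63% held the letters, against 4.53% of the 2360 called lower in M_APC, 1.19% of the 2447 called higher and 2.45% of those not called. In the interferon list 9 of 21 with a sequence held them (Bst2, Ifi205, Ifit1, Ifit3, Ifit3b, Isg15, Oas1a, Rsad2 and Stat2). They were also held by 3 of 13 genes of MHC class I presentation (B2m, H2-T22 and H2-T23) and 5 of 28 ribosomal protein genes with a sequence. A match is a description of the letters in this window and not a measured binding site.

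MHC class I presentation genes, which display peptides to T cells, fell for 11 of 15 and rose for 2, with a median of -0.66. This median was -0.5526 under quantile normalization, -0.5584 without M_APC replicate 2 and -0.5688 without F_APC replicate 1. B2m, the light chain shared by class I molecules (chromosome 2, 122147687 to 122153082), had 8178, 8627 and 7022 in M_APC, against 21234, 21499 and 20156 in F_APC (-1.405 ± 0.08, adjusted p = 7.99e-11). Nlrc5, the transactivator of this gene family, had 68.7, 62.6 and 66.7 in M_APC, against 388, 345 and 343 in F_APC (-2.42 ± 0.12, adjusted p = 6.31e-12). H2-Q7 had 86.9, 60.3 and 83.7 in M_APC, against 435, 372 and 309.7 in F_APC (-2.26 ± 0.15, adjusted p = 5.21e-10), and H2-Q6 fell too (-1.66), but near-identical copies make single H2-Q genes uncertain. H2-K1 (-1.05) and H2-D1 (-0.72), the classical heavy chain genes, fell, and H2-T23 (0.36) and the peptide transporter gene Tap2 (0.20) rose.

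Chemokine genes fell for 10 of 18 and rose for 6, with a median of -0.68 (-0.5651 under quantile normalization). Cxcl10, an interferon-induced attractant of T cells, had 1246, 1047 and 1046 in M_APC, against 10214, 7272 and 6978 in F_APC (-2.86 ± 0.11, adjusted p = 2.90e-13), and Cxcl9, of the same group, had 252, 191 and 221 in M_APC, against 2704, 1549 and 1683 in F_APC (-3.12 ± 0.15, adjusted p = 4.61e-12). Cxcl13, an attractant of B cells, had 18.2, 16.2 and 15.8 in M_APC, against 149, 153 and 227 in F_APC (-3.29 ± 0.20, adjusted p = 1.24e-10). All 3 were higher in each F_APC library. Ccl8 fell (-2.15), while the monocyte attractants Ccl2 (1.196), Ccl7 (0.69) and Ccl9 (1.55) rose. Among cytokines and their receptors 4 of 25 rose and 11 fell. Lif, a cytokine of the interleukin 6 family, had 1583, 1185 and 1244 in M_APC, against 183, 183 and 241 in F_APC (2.72 ± 0.12, adjusted p = 9.95e-13). Il4ra, the interleukin 4 receptor gene, had 2891, 2548 and 2936 in M_APC, against 11564, 13211 and 10906 in F_APC (-2.09 ± 0.08, adjusted p = 2.90e-13), and Il33, an alarmin that sustains regulatory T cells in gonadal fat, had 46.1, 48.7 and 76.9 in M_APC, against 179, 156 and 214 in F_APC (-1.69 ± 0.18, adjusted p = 3.97e-07). The receptor gene of that alarmin, Il1rl1, fell in parallel (-1.86).

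Macrophage markers, by contrast, were higher in M_APC for 7 of 14 and lower for 1, their sum lying at 972 to 1457 in M_APC and 544 to 1063 in F_APC, with Ptprc at 25.8, 47.5 and 29.4 in M_APC, against 8.91, 16.6 and 24.9 in F_APC. Lymphocyte and granulocyte markers summed to 41.9 to 101 in M_APC and 17.8 to 30.4 in F_APC over 11 genes, and 1 of them, the B cell gene Cd79a, passed the minimum (25.8, 44.0 and 28.3 in M_APC, against 11.9, 7.13 and 12.4 in F_APC, 1.55); Nkg7 was at 0 in all 6 libraries. The part of these cells in the immune differences was not tested.

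Complement and acute phase genes rose for 7 of 22 and fell for 7. C7, a component of the membrane attack complex (chromosome 15, 4987750 to 5063773), had 25641, 22131 and 24027 in M_APC, against 1294, 951 and 1322 in F_APC, 20.1-fold higher in M_APC (4.34 ± 0.10, adjusted p = 2.00e-16). Hp, the haptoglobin gene, had 4502, 4404 and 4172 in M_APC, against 807, 1043 and 1091 in F_APC (2.16 ± 0.09, adjusted p = 8.90e-13), and Lcn2, the lipocalin 2 gene, had 84.8, 64.9 and 66.7 in M_APC, against 22.8, 23.8 and 23.5 in F_APC (1.58 ± 0.20, adjusted p = 3.74e-06). C3, the central complement component, was lower, with 90164, 85196 and 90482 in M_APC, against 163539, 153257 and 134047 in F_APC (-0.76 ± 0.12, adjusted p = 2.56e-05), and C4b was lower too (-1.18). Ptx3, a soluble pattern recognition protein, had 36107, 33225 and 34236 in M_APC, against 62268, 60382 and 62654 in F_APC (-0.84 ± 0.09, adjusted p = 2.84e-07).

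Cholesterol synthesis was the list with the most uniform rise: 18 of 22 genes were higher in M_APC and none lower, with a median of 0.80. Sqle, the squalene epoxidase, had 673, 531 and 580.4 in M_APC, against 218, 196 and 170.1 in F_APC (1.61 ± 0.11, adjusted p = 7.99e-10), and Fdps, the farnesyl diphosphate synthase, had 267, 201 and 236 in M_APC, against 72.3, 65.4 and 65.0 in F_APC (1.77 ± 0.14, adjusted p = 4.35e-09). Every M_APC library was above every F_APC library for these enzymes. Fdft1 (1.69) and the regulator gene Srebf2 (2851, 2268 and 2634 in M_APC, against 1288, 1105 and 1029 in F_APC, 1.18) rose as well. Acat2 (0.24), Dhcr7 (0.04) and Insig1 (0.15) were not called. Fatty acid synthesis genes followed, 11 of 16 higher and 2 lower with a median of 0.34: Scd1, a desaturase, had 4015, 4627 and 4834 in M_APC, against 2247, 2761 and 3002 in F_APC (0.76 ± 0.09, adjusted p = 2.20e-06) and Srebf1, the regulator of lipogenesis, had 1176, 1206 and 1226 in M_APC, against 671, 805 and 683 in F_APC (0.74 ± 0.08, adjusted p = 3.49e-07). Mlxipl, another lipogenic regulator, fell (-1.23 ± 0.17, adjusted p = 5.58e-06).

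The CCAAT box, bound by the factor NF-Y, is common in promoters of sterol and MHC class I genes, which moved in opposite directions here, so 1 promoter of each is shown: Hmgcs1, a synthase of the cholesterol pathway, which had 1636, 1309.9 and 1407 in M_APC, against 1122, 1164 and 971 in F_APC (0.42 ± 0.09, adjusted p = 0.000716), and B2m. Both are the 250 bases before the annotated start on the plus strand (RefSeq, GRCm38.p6, chr13:119690101-119690350 and chr2:122147437-122147686), and capitals mark CCAAT on either strand, read as ATTGG where it lies on the opposite one.
Hmgcs1: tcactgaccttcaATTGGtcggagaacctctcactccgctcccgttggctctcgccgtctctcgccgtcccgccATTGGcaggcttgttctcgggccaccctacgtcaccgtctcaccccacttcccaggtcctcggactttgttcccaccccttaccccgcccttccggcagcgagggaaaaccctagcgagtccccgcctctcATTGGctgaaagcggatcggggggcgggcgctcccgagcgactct
B2m: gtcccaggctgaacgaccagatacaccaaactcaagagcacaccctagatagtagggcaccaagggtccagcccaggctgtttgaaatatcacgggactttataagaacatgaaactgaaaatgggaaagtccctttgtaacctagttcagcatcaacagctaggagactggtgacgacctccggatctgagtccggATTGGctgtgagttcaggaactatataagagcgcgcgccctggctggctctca
Hmgcs1 holds 3 CCAAT matches and B2m 1, and the letters of the interferon-stimulated response element that B2m also holds are not marked. The letters were found in 12 of 14 cholesterol genes and 11 of 13 MHC class I genes with a sequence, against 35.9% of all 9836 promoters, 34.9% of genes called higher in M_APC and 36.0% of those called lower. So the CCAAT letters were no more frequent among genes that rose than among genes that fell.

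Adipocyte lipid storage genes rose for 8 of 22 and fell for 4, 54.5% called in all, near the 48.9% of all genes. Lep, the leptin gene, had 26.8, 44.0 and 46.4 in M_APC, against 14.9, 8.32 and 12.4 in F_APC (1.63 ± 0.31, adjusted p = 0.000222), and Pck1, a gluconeogenic and glyceroneogenic enzyme, had 203, 253 and 272 in M_APC, against 85.1, 76.1 and 106 in F_APC (1.43 ± 0.15, adjusted p = 1.75e-07). Plin1, a lipid droplet coat protein, had 186, 201 and 193 in M_APC, against 431, 574 and 550.3 in F_APC (-1.41 ± 0.11, adjusted p = 4.19e-09), and Adipoq, the adiponectin gene, had 143, 197 and 205 in M_APC, against 309, 264 and 399.6 in F_APC (-0.83 ± 0.15, adjusted p = 0.000136), both lower in M_APC. The 8 adipocyte markers, all part of this list, summed to 972 to 1235 in M_APC and 1363 to 1586 in F_APC. Of these markers 3 rose and 2 fell, with a median of 0.31 (0.0298 at a minimum of 50). Plin1 and Adipoq were the 2 that fell, and they carried the lower sum of M_APC. Whether the markers come from adipocyte RNA was not tested.

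Ribosomal protein genes fell as a block: all 39 tested were lower in M_APC, with a median of -0.83 (-0.7040 under quantile normalization), each member between -1.08 and -0.53. Rpl5 had 2659, 2957 and 2414 in M_APC, against 5349, 5945 and 5589 in F_APC (-1.08 ± 0.08, adjusted p = 1.66e-09), and Rps24 had 2422, 3016 and 2325 in M_APC, against 4877, 5797 and 5636 in F_APC (-1.08 ± 0.09, adjusted p = 1.50e-08). Many processed pseudogenes resemble these genes, so single members are uncertain. Nuclear genes of oxidative phosphorylation fell for 21 of 37 with none higher, but by less, with a median of -0.23; Atp5c1, a subunit of ATP synthase, had 781, 911 and 787 in M_APC, against 1112, 1206 and 1132 in F_APC (-0.48 ± 0.08, adjusted p = 5.59e-05). Glycolysis and hypoxia genes rose for 4 of 24 and fell for 9, 54.2% called in all, near the 48.9% of all genes. Slc2a1, a glucose transporter, had 742, 626 and 707 in M_APC, against 1299.9, 1383 and 1529 in F_APC (-1.02 ± 0.08, adjusted p = 8.84e-09). Cell cycle genes rose for 6 of 37 and fell for 10, 43.2% called in all, below the 48.9% of all genes. Mki67 (-0.28) and Top2a (-0.28), marks of dividing cells, were not called. Cdc6, a licensing factor of replication, had 76.2, 110.1 and 71.3 in M_APC, against 25.7, 24.97 and 27.7 in F_APC (1.65 ± 0.21, adjusted p = 2.41e-06).

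In a list of angiotensin, kinin and natriuretic genes that also holds some other receptor genes, 9 of 26 rose and 8 fell. Agt, the angiotensinogen gene (chromosome 8, 124556587 to 124569706), had 5062, 4732 and 4564 in M_APC, against 407, 338 and 394 in F_APC, 12.6-fold higher in M_APC (3.66 ± 0.08, adjusted p = 9.27e-17). Ace, the angiotensin-converting enzyme, had 20453, 19378 and 20428 in M_APC, against 4499.7, 5306 and 5481 in F_APC (1.98) and was named after its values were seen. Precursor and converting enzyme were both higher in each M_APC library. Bdkrb2, a bradykinin receptor gene, rose (2.55), and Ptgfr, a prostaglandin F receptor gene (-2.48), and Adra1a, an adrenergic receptor gene (-3.31), fell. Among myofibroblast genes 7 of 17 rose and 5 fell: Lmod1, an actin nucleator of smooth muscle, had 306, 291 and 326 in M_APC, against 7.92, 16.6 and 19.4 in F_APC (4.39 ± 0.24, adjusted p = 2.47e-11), and Nov, of the CCN family, had 61.2, 93.9 and 106 in M_APC, against 239.6, 291 and 376 in F_APC (-1.80 ± 0.18, adjusted p = 1.57e-07). Acta2, the smooth muscle actin gene, was not called (0.48). Mural markers rose for 3 of 11 and fell for 2, 45.5% called in all, against 48.9% of all genes. Their sum lay at 3757 to 4405 in M_APC and 2624 to 3102 in F_APC. Des held much of that gap, at 1437 to 1452 in M_APC and 470 to 556 in F_APC. Myh11 and Mcam were also higher in every M_APC library, and Cspg4 and Abcc9 lower. The groups overlapped for the rest, among them Rgs5, Notch3 and Kcnj8. The part of mural cells in the contractile genes was not tested.

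Stress genes were mixed. In the integrated stress response list 9 of 18 rose and 4 fell: Mthfd2, a mitochondrial folate enzyme, had 171, 189 and 184 in M_APC, against 55.4, 55.9 and 49.8 in F_APC (1.74 ± 0.14, adjusted p = 7.10e-09), and Gdf15, a stress-induced hormone, had 134, 166 and 166 in M_APC, against 71.3, 34.5 and 41.5 in F_APC (1.70 ± 0.21, adjusted p = 1.93e-06). Immediate early genes, which tissue dissociation is known to induce, rose for 6 of 26 and fell for 11. Nr4a1, an orphan nuclear receptor gene, had 3393, 3398 and 3529.7 in M_APC, against 7904, 12201 and 12880.5 in F_APC (-1.64 ± 0.12, adjusted p = 2.75e-09), and the heat shock gene Hspa1a, a near copy of Hspa1b, had 2444, 2652 and 2568 in M_APC, against 906, 811 and 744 in F_APC (1.64 ± 0.08, adjusted p = 4.23e-12). Fosb, a partner of Jun in the AP-1 factor, had 102627, 99448 and 101727 in M_APC, against 136953, 120081 and 117523 in F_APC (-0.30 ± 0.11, adjusted p = 0.0348); it turned to 0.0968 under quantile normalization (adjusted p = 0.341), and its call was lost without any of 5 of the 6 libraries, with adjusted p between 0.0544 and 0.11. Of 30 glutathione and xenobiotic genes 9 rose and 9 fell, Gstm5 with 1190.2, 1211 and 955 in M_APC, against 393, 442 and 387 in F_APC (1.45 ± 0.09, adjusted p = 3.96e-10).

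Among the called genes with the highest normalised values, Dcn, the decorin gene, had 167007, 180265 and 156745 in M_APC, against 130628, 124212 and 132735 in F_APC (0.38 ± 0.12, adjusted p = 0.0138), a call lost without M_APC replicate 1 (adjusted p = 0.0539) or F_APC replicate 2 (adjusted p = 0.0541). Col4a1 and Col4a2, the main chains of basement membrane collagen, rose by 0.39 ± 0.11 and 0.61 ± 0.10. Thbs1, C3, Fn1 and Ptx3, given above, moved more than these structural genes.

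Markers of other cells were read on whole lists. Mesothelial markers, of the lining around gonadal fat, fell for 10 of 12 and rose for 1, with a median of -1.44 (-1.1720 at a pseudocount of 5). Upk3b had 147, 91.6 and 152 in M_APC, against 421, 395 and 449 in F_APC (-1.72 ± 0.15, adjusted p = 2.03e-08), and Msln, the mesothelin gene, had 95.5, 62.6 and 84.8 in M_APC, against 155, 134 and 181 in F_APC (-0.96). The summed level of the mesothelial markers lay at 1583 to 1665 in M_APC and 1796 to 2050.4 in F_APC. Cldn15, a claudin gene, was the member that rose, at 1150.5, 1249.6 and 1118 in M_APC, against 819.7, 734 and 647 in F_APC. It was the largest part of the summed level in both groups, so the sums understate the fall of the other markers. Krt8 was not called and Wnt16 was below the minimum. The 10 markers that fell moved with the genes lower in M_APC, and their part in those differences was not tested. Endothelial markers rose for 4 of 12 and fell for 1, so 41.7% were called, against 48.9% of all genes. They summed to 4440 to 5201 in M_APC and 3543 to 5171 in F_APC. Cldn5 had 732, 626 and 615 in M_APC, against 277, 367 and 465 in F_APC (0.86 ± 0.13, adjusted p = 3.10e-05). Epithelial markers were all below the minimum, and Epcam, their defining gene, had 0, 1.16 and 2.26 in M_APC, against 3.96, 2.38 and 6.91 in F_APC. Their summed level was 11.3 to 15.1 in M_APC and 18.8 to 106 in F_APC, the highest in F_APC replicate 3, where Cldn4 had 51.2 and Krt5 26.3; their part in the differences was not tested. Of the markers of gonad and reproductive tract, 4 of 16 were tested and Sox9 alone was called (0.50), while Fshr, Crisp1, Lcn5 and Svs2 were at 0 in all 6 libraries. Erythroid genes summed to 103 to 115 in M_APC and 35.6 to 101 in F_APC.

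The same sex difference was set beside that of the other 3 populations, whose libraries are not shared with APC, in 1 fit over all 24 libraries. There, 3043 genes were higher in M_APC (24.3%) and 2918 lower (23.3%). In gonadal FIP 19.5% of these genes were higher in M and 20.3% lower, in inguinal DPP4_neg 28.4% and 30.1%, and in inguinal DPP4_pos 28.7% and 26.7%. Of the genes higher in M_APC, 1700 were also higher in M_FIP (55.9% of the APC list and 69.6% of the FIP list), and 41 were lower there. Of those lower in M_APC, 1702 were also lower in M_FIP (58.3% and 67.1%), and 63 were higher. With DPP4_neg the shared counts were 1553 higher (51.0% and 43.7%) and 1347 lower (46.2% and 35.8%), and 454 and 574 genes went in opposite directions. With DPP4_pos they were 1538 higher (50.5% and 42.9%) and 1270 lower (43.5% and 38.1%), and 397 and 527 genes went in opposite directions. In all 3 other populations 801 of the higher and 661 of the lower genes were called in the same direction, and 344 and 295 were called in none of them.

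Sult1e1, C7 and Agt were higher in M in every population: Sult1e1 by 5.29 in APC, 5.55 in FIP, 4.50 in DPP4_neg and 4.36 in DPP4_pos, and C7 by 4.34, 4.47, 4.18 and 4.47 in the same order. Agt was higher by 3.66, 4.02, 3.77 and 2.26. Greb1 was lower in M in all 4, by log2 values of -4.08, -5.68, -5.40 and -8.47. Ngfr was lower in all 4 too, at -8.51, -7.69, -3.68 and -6.95. Such genes carried the same direction of sex difference in gonadal and inguinal fat.

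Direct tests of the difference between populations called 1477 genes (11.8%) for APC less FIP, 738 higher (5.9%) and 739 lower (5.91%); a fit of the 12 libraries of those 4 groups alone called 1151 higher and 1207 lower. The direct tests called 5532 genes (44.2%) for APC less DPP4_neg, 2841 higher (22.7%) and 2691 lower (21.5%). Posterior HOX genes belonged to the second set: Hoxc10 was lower in M_APC by a log2 value of -5.36 but higher in M_DPP4_neg at 1.002, a difference of -6.36 ± 0.35, adjusted p = 4.22e-13. Hoxc10 had 428, 405 and 430.3 in M_DPP4_neg, against 214, 177 and 244 in F_DPP4_neg, so the inguinal cells expressed it in both sexes. Cxcl13 was lower in M_APC and higher in M_DPP4_neg, with a difference of -5.85 ± 0.29, adjusted p = 7.84e-14. Clic6, a chloride channel family gene, was the top gene of APC less FIP (4.42 ± 0.39, adjusted p = 2.83e-08): it had 886, 772 and 864 in M_APC, against 38.6, 60.6 and 63.6 in F_APC, and 342, 309 and 314 in M_FIP, against 476, 459 and 396 in F_FIP. Cilp, a cartilage matrix gene, was lower in M_APC, with 255, 293 and 292 in M_APC, against 1640.5, 2458 and 2167 in F_APC, and had 5005, 6973 and 5417 in M_FIP, against 4864, 4768 and 3363 in F_FIP (-3.30 ± 0.21, adjusted p = 1.49e-10).

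**Figure D5:**
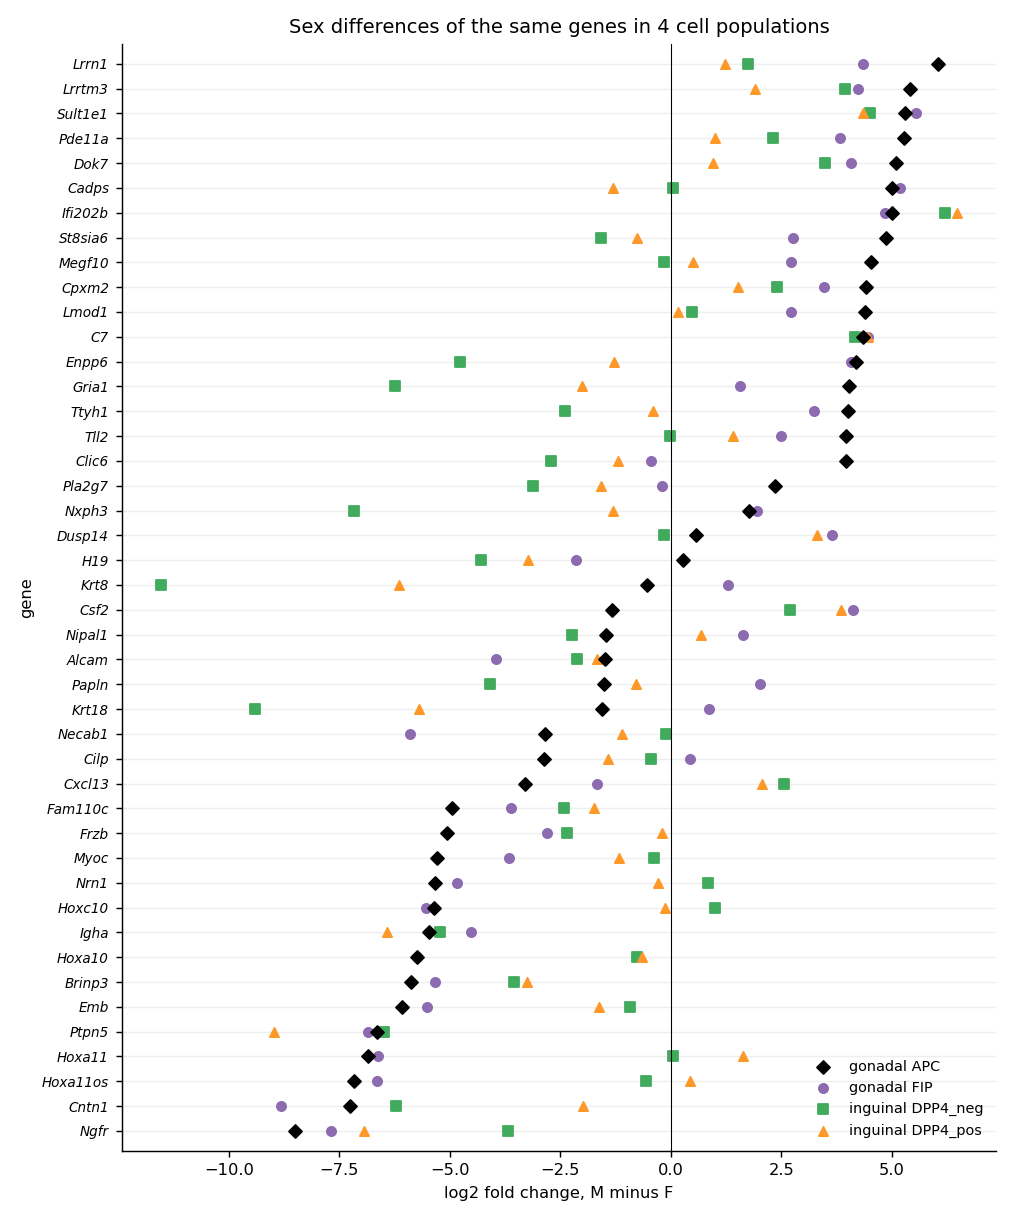
Log2 fold change of M minus F (x axis) for 44 named genes (rows, ordered by their value in APC) in gonadal APC (black diamonds), gonadal FIP (purple circles), inguinal DPP4_neg (green squares) and inguinal DPP4_pos (orange triangles). FIP lies near APC for most of the genes at the top and bottom, Hoxa11 and Hoxc10 are near or above 0 in the inguinal populations, and Krt8 and Krt18 are far below 0 in DPP4_neg.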

How the data were processed

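Libraries were made from RNA of sorted PDGFRb-positive cells (0.5 ug of total RNA each, per the labels' protocols). The submitters' processing notes list DESeq2 1.6.3, featureCounts 1.4.6, HISAT2 2.0.1 and Trim Galore 0.4.1 and the build GRCm38 or mm10, with no role, annotation, strand setting or filter. The authors' deposited table holds normalized signal, gene by library, in which each library's reads had been divided by its own size factor: dividing by the smallest step gave whole reads for 100% of values in each of the 24 libraries (tolerance 0.01 read).

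Genes without a symbol took 0.0585% to 0.0737% of the reads of the 6 libraries. Of the gene identifiers, 25271 (93.0%) matched the RefSeq annotation of GRCm38.p6, which gave chromosomes and positions. Values were put on log2(value + 1), so fold changes understate those of low genes, and limma 3.58.1 (R 4.3.3, mean-variance trend) was fitted to the 6 libraries over all 13069 genes with a value of at least 10 in 3 of them. Adjusted p-values are Benjamini-Hochberg over these; 424 X-linked, 4 Y-linked and 118 genes without a chromosome match are not members. Named fold changes are M_APC minus F_APC with SE, and n is 3 per group. Comparisons with other populations came from 1 fit of all 24 libraries. Reading with edgeR 4.0.16 and DESeq2 1.42.0 on the recovered reads was an alternative, and figures were drawn with matplotlib 3.10.9. The fit was tested on simulated data.

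Named genes were the 15 highest and 15 lowest called genes whose groups did not overlap (mean in the higher group at least 100), up to 4 called members per list, the 10 most abundant called genes, the 5 highest and 5 lowest of each difference between populations, both steroid lists and 10 check genes; genes known only by a predicted or clone name were passed over, and other members of a list are given after their values were seen. Some genes are not reported here. The members, lists and rules were chosen with earlier results of these data known. A group with 0 reads is given a floor of 3 reads, which covers counting error alone, as PCR copies without molecular identifiers are not separate molecules. Same-group libraries differed by more than sampling noise (chi-square per degree of freedom 2.22 to 6.78), so each counted as 1 sample.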

Additional observations from a re-analysis of the deposited data

Results flagged for a closer look

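The genes below were singled out because a test of the difference itself gave another sex difference in APC than in a second population. Values are log2 differences (M minus F in APC less M minus F in the other population) from limma over all 24 libraries; the cause of each was not tested.

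Against gonadal FIP, the sex difference of APC was lower for Csf2, a colony-stimulating factor gene (-5.46 ± 0.41, adjusted p = 1.48e-09), which was at 8.59, 3.48 and 10.2 in M_APC, against 22.8, 13.1 and 22.1 in F_APC and at 275, 277 and 267 in M_FIP, against 10.8, 19.6 and 14.9 in F_FIP. It was also lower for Papln (-3.53), Cilp (-3.30), Nipal1 (-3.09) and Dusp14 (-3.08). The call of Csf2 between M_APC and F_APC was lost without M_APC replicate 2 (adjusted p = 0.0593) or F_APC replicate 1 (adjusted p = 0.0512). The sex difference of APC was higher than that of FIP for Clic6 (4.42), Necab1 (3.06), the phospholipase gene Pla2g7 (2.56), the adhesion gene Alcam (2.47) and the imprinted RNA H19 (2.42). Dusp14 and H19 were not called between M_APC and F_APC, so their differences rest on FIP.

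Against inguinal DPP4_neg, the sex difference of APC was lower for Hoxa11 (-6.90), Hoxa11os (-6.62), Hoxc10 (-6.36), Nrn1 (-6.17) and Cxcl13 (-5.85). The values of Hoxa11 and Hoxa11os depend on the pseudocount, since M_APC had 0 reads. The sex difference of APC was higher than that of DPP4_neg for Krt8 (10.99), the glutamate receptor gene Gria1 (10.28), Enpp6 (8.97), Nxph3 (8.94) and Krt18 (7.85). The keratins were at 0, 2.04 and 0 (Krt8) in M_DPP4_neg, against 2851, 6780.1 and 4071 in F_DPP4_neg, and at 27.9, 20.9 and 21.5 in M_APC, against 26.7, 32.1 and 47.0 in F_APC, so those differences rest on the F_DPP4_neg libraries.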

How the results depend on the processing

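The counts of called genes stayed within 1.5 times of the reported ones under the pseudocounts, scalings, filters and models tried, except that a minimum of 50 left 483 genes higher and 419 lower past 2-fold, with fewer genes tested, and that a fit of the 12 libraries of the 4 groups alone called 1151 higher and 1207 lower for APC less FIP. On the recovered reads edgeR called 3217 higher and 2997 lower genes, and DESeq2 2647 and 2638. Between 84.3% and 100% of the 6116 calls held in an alternative, and none was called there with the opposite sign. Leaving out 1 library gave 2627 to 3053 genes higher and 2601 to 2942 lower, 704 to 828 and 658 to 685 past 2-fold, 547 to 718 and 613 to 731 for APC less FIP, and 2524 to 2701 and 2508 to 2588 for APC less DPP4_neg. Same-numbered libraries deviated together only weakly (r of 0.063, 0.099 and 0.083, each library correlating best with its own number), so the numbers were not taken as pairs; the replicate block called 3272 higher and 3207 lower genes. Signs turned for Fosb under quantile normalization (0.0968), and for the list medians of the IGF axis when libraries were left out (-0.1559 to 0.0078, the highest without M_APC replicate 2), cytokines (0.0337) and complement (-0.0424) at a minimum of 50, and immediate early genes under quantile normalization (0.0759); the cause was not tested. Of the named genes 12 lost a call under at least 1 alternative. With 3 libraries a group from unstated animals, values near the minimum of 10 rest on about 10 reads a library.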
